A study of Mus musculus with 32 samples.

Results

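The genes described here encode voltage-gated sodium, potassium and calcium channels, their accessory subunits and the other potassium channels that share the Kcn symbol. Members were the protein-coding genes whose symbol starts with Kcn or Cacn, or is Scn with a number and the letter a or b, and whose expected counts summed to at least 100 over the 12 RNA libraries. This gave 105 of the 52636 gene entries. Another 29 protein-coding channel symbols had lower totals and 4 channel symbols were not protein coding. Kcnj14, with a total of 104.51, Cacna2d4 with 114, Kcnk4 with 151 and Kcna3 with 173 lay just inside the threshold, and Scn11a with 92, Kcna7 with 72, Kcnn4 with 72 and Scn4b with 71 lay just outside. The 105 genes fell into sodium channels (11), pore-forming Kv subunits (35), accessory Kv subunits (7), inward rectifier (Kir) and leak (K2P) potassium channels (19), calcium- and sodium-activated potassium channels with their accessory subunits (9), pore-forming calcium channel alpha1 subunits (8), accessory calcium channel subunits (15) and the regulator gene Kcnrg (1). Kir and K2P channels, small-conductance calcium-activated channels and several of the gamma subunits are not gated by voltage and belong to the set through their symbol.

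The study used hybrid mouse embryonic stem cells (ESCs) and neurons induced from them (iNs), and asked how gene expression changes without the maternal miR-379/410 microRNA cluster. The 4 RNA groups were iNs at day 10 with the genotype Mirg(Delta/+), called deletion iNs, iNs at day 10 with the genotype Mirg(fl/+), called control iNs, and ESCs at day 0 of both genotypes, called deletion ESCs and control ESCs, each with 3 libraries (A to C) of RNA depleted of ribosomal RNA. Both genotypes thus carry a modified allele, deleted in one and floxed in the other. ESCs of both genotypes were kept in medium with 10% serum and LIF, and iNs of both genotypes were made by switching on a TetO-Ngn2 transgene with doxycycline for 10 days in a neuronal medium. The labels do not say whether the libraries A to C came from separate cultures or cell clones, so p-values here speak for the spread among the libraries alone, and the deletion cannot be told apart from other differences between the lines that carry it and those that do not.

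Voltage-gated channels open when the membrane potential changes. Sodium channels carry the rising phase of the action potential, potassium channels end it and set how often a neuron can fire, and calcium channels turn it into calcium entry, which triggers transmitter release and signals to the nucleus. Each pore-forming subunit works with accessory subunits that move it to the membrane and tune its gating, and the mixture of subunits differs between neuron types.

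Library totals ran from 14904735 to 21499106 expected counts. Mirg, the host transcript of the deleted cluster, had 2, 0 and 2 expected counts in deletion iN libraries and 455, 685 and 648 in control iN libraries, and 0 in each deletion ESC library against 672 to 932 in control ESC libraries. Levels per transcript length are given as TPM, and levels per library as CPM of the scaled library size. The TPM scale itself moved between the genotypes: the median log2 ratio of deletion iNs to control iNs over 16028 genes was 0.23 in TPM and 0.00 in CPM, so genotypes are compared in CPM. Deletion iNs had a summed level of 12 pan-neuronal markers of 10586.51 to 10838.33 CPM and control iNs one of 10511.25 to 10736.39 CPM, against 315.41 to 327.76 CPM in deletion ESCs and 271.07 to 279.58 CPM in control ESCs. The 10 pluripotency markers summed to 8.58 to 8.98 CPM in deletion iNs, 14.75 to 15.86 in control iNs, 2422.23 to 2564.86 in deletion ESCs and 2560.03 to 2662.53 in control ESCs. In bulk RNA, fewer cells of a type and less RNA per cell cannot be told apart.

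The channel set was read out mainly in the neurons. All 105 genes together summed to 7201 ± 83.4 CPM in deletion iNs, 6552 ± 85.6 CPM in control iNs, 351 ± 3.66 CPM in deletion ESCs and 347 ± 4.53 CPM in control ESCs (mean ± SD, n = 3 each). In deletion iNs 80 members and in control iNs 75 members reached a mean of 1 TPM, against 27 in deletion ESCs and 26 in control ESCs. These counts and the TPM values below carry the shift of the TPM scale between the iN genotypes. They serve to order genes within a group and do not compare genotypes. The beta subunit gene Scn3b had the highest level in the neurons, with 145 ± 11.8 TPM in deletion iNs and 97.7 ± 7.34 TPM in control iNs. Scn9a, a sodium channel known from sensory and sympathetic neurons, followed with 122 ± 7.003 and 91.2 ± 8.06 TPM in the same groups, and the SDs of these neighbours in the order overlapped in control iNs. Also high were Cacna2d1, an alpha2delta subunit that brings calcium channels to the membrane (95.7 ± 2.93 TPM in deletion iNs and 83.9 ± 1.89 in control iNs) and Kcnab1, a cytoplasmic Kv beta subunit (91.2 ± 11.3 and 77.96 ± 9.22). The 10 members with the highest levels held 47.4% of the summed TPM in deletion iNs and 47.8% in control iNs. In ESCs the only member above 10 TPM was Kcnk1, a leak channel subunit, at 17.5 ± 0.949 TPM in deletion ESCs and 15.8 ± 1.09 TPM in control ESCs, with the gamma subunit gene Cacng7 (9.51 ± 0.705 and 7.97 ± 0.8298), the leak channel Kcnk5 (9.18 ± 1.400 and 9.47 ± 0.605) and Cacna1a (9.31 ± 1.68 and 7.73 ± 1.48) next. The SDs of these last 3 overlapped in deletion ESCs, and in control ESCs Kcnk5 came before Cacng7 and Cacna1a.

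In neurons against stem cells, most channel genes were higher and a smaller set, leak, rectifier and modifier subunits among them, was lower. In deletion cells 104 members were tested with edgeR's quasi-likelihood test and 82 were higher and 14 lower in iNs at an adjusted p under 0.05, where over all 17524 genes tested 44.6% were higher and 44.9% lower. In control cells 104 were tested and 79 were higher and 15 lower, where over 17247 genes 43.9% were higher and 45.1% lower. The median log2 fold change of iN over ESC was 4.33 over the members in deletion cells and 4.12 in control cells, against −0.01 and −0.03 over all genes. A gene could reach the total count of 100 through 1 cell type alone, so these counts describe the set and do not test it. Every sodium channel gene was higher in iNs in both genotypes, with a median of 5.66 in deletion cells and 5.61 in control cells. Inward rectifier and leak channels were the most divided class, with 12 of 18 higher and 5 lower in deletion cells and 12 of 19 higher and 5 lower in control cells.

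**Figure D1:**
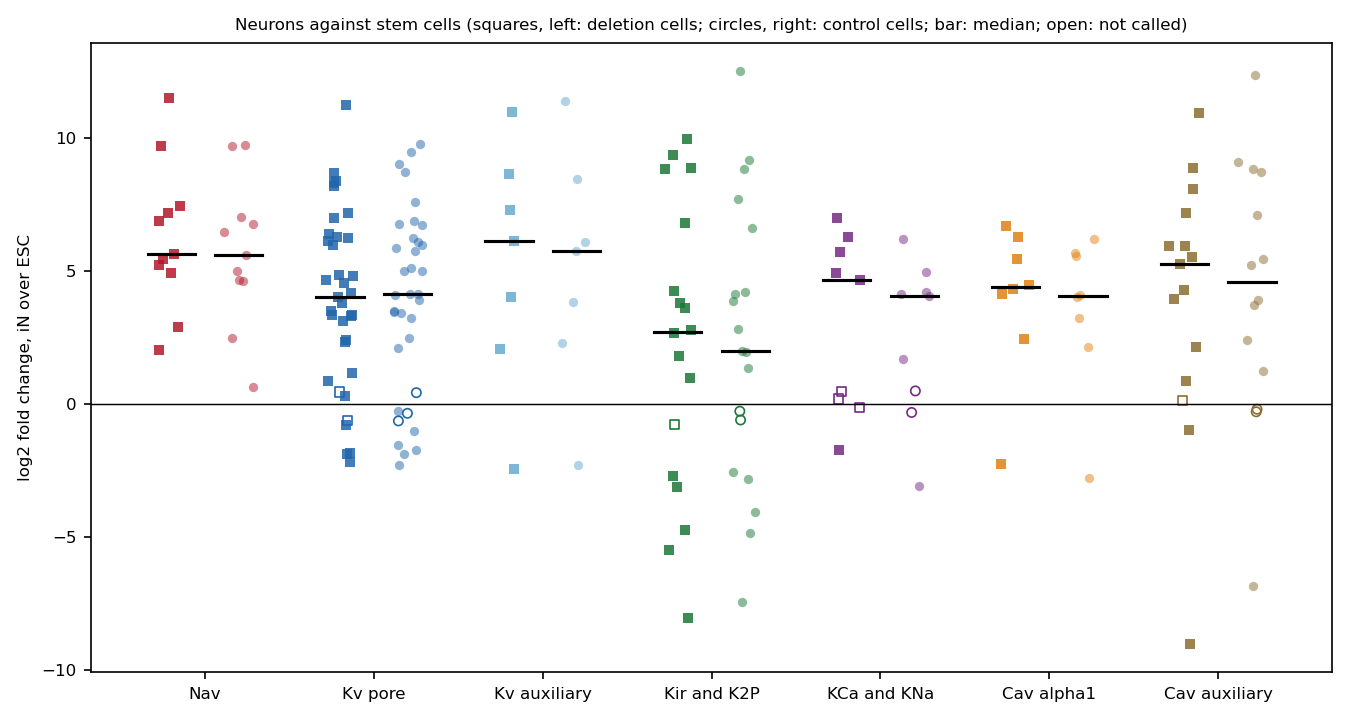
Log2 fold change of iN over ESC for each tested channel gene, by class, in deletion cells (squares, left) and control cells (circles, right); bars are class medians and open symbols did not pass an adjusted p of 0.05. Points of genes with no counts in a group depend on the prior count of the fit. All 11 sodium channel genes lie above 0 in both genotypes, and falls below −5 occur among the Kir and K2P and the accessory calcium channel genes.

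The genes with the largest rises had almost no reads in stem cells. Kcnk9, a leak channel of the nervous system, had 42.9, 36.8 and 43.1 CPM in deletion iN libraries against 0, 0.104 and 0 in deletion ESC libraries, and 35.9, 43.1 and 41.9 CPM in control iN libraries against 0 in each control ESC library. Set against a floor of 3 counts over the group, Kcnk9 was at least 764-fold higher in control iNs. Cacng2, an accessory protein of glutamate receptors and a calcium channel gamma subunit, was at least 679.63-fold higher in control iNs by the same rule, with 33.6, 33.98 and 41.2 CPM there and 0 in each control ESC library. In deletion iNs it had 48.7, 48.4 and 44.5 CPM against 0.0494, 0 and 0 in deletion ESCs. Kcnab1 changed by 10.98 ± 0.17 (log2 fold change ± SE) in deletion cells and by 11.39 ± 0.13 in control cells, from 7 counts over the deletion ESC libraries and 5 over the control ESC libraries. Without single ESC libraries it was 10.38 (without deletion ESC library A) and 11.58 (B) in deletion cells and 12.05 (without control ESC library C) in control cells. These shifts exceed the SEs, which are derived from the test statistic and understate the spread where a group has almost no counts. Kcnb2, a delayed rectifier, changed by 11.24 ± 0.12 and 9.78 ± 0.13 in the same order, and Kcnc1, a fast-spiking Kv channel, by 8.41 ± 0.16 (9.21 without deletion ESC library A) and 9.05 ± 0.15. The rectifier gene Kcnj6, which G proteins open, and the Kv4 accessory gene Kcnip4 had no counts in any ESC library and were at least 82.9-fold and 50.8-fold higher in deletion iNs and at least 75.0-fold and 44.4-fold higher in control iNs.

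A smaller set of channel RNAs was higher in stem cells than in neurons. Kcnk5 had 0.101, 0.158 and 0.101 CPM in deletion iN libraries against 35.8, 32.3 and 30.7 in deletion ESC libraries, and 0.134, 0.3303 and 0.0581 CPM in control iN libraries against 35.1, 33.2 and 33.2 in control ESC libraries. Its fitted log2 fold change was −8.04 ± 0.18 in deletion cells (adjusted p = 2.47e-13) and −7.45 ± 0.20 in control cells (adjusted p = 1.87e-12), and the groups did not overlap. These values rest on 7 counts in deletion iNs and 10 in control iNs, and without control iN library B the value in control cells was −8.40. Cacng6, a gamma subunit known from muscle calcium channels, had no counts in deletion iNs and was at least 64.2-fold lower there than in deletion ESCs, where it had 3.95, 2.85 and 3.04 CPM. In control iNs it had 0, 0 and 0.0581 CPM against 2.57, 3.200 and 2.93 in control ESC libraries. The leak channel Kcnk6 changed by −4.73 ± 0.26 in deletion cells and −4.85 ± 0.29 in control cells, and Kcnk1 by −3.10 ± 0.09 and −2.55 ± 0.09. Kcnj10, a rectifier of glia, had 0.101, 0 and 0.0507 CPM in deletion iNs against 2.27, 2.23 and 3.14 in deletion ESCs, and 0.0669, 0.189 and 0.0581 CPM in control iNs against 1.76, 1.93 and 2.29 in control ESCs. Among pore-class Kv genes, those lower in iNs of both genotypes were silent modifiers, which form no channel alone but change partners of the Kv2 family. They were Kcns3 (−1.84 ± 0.23 and −2.29 ± 0.27), Kcng3 (−2.19 ± 0.23 and −1.89 ± 0.21), Kcng1 (−1.86 ± 0.27 and −1.72 ± 0.26) and Kcns2 (−0.77 ± 0.27 and −1.52 ± 0.32). The accessory Kv beta subunit gene Kcnab3 was lower as well (−2.43 ± 0.36 and −2.29 ± 0.44), with −3.01 in control cells without control iN library B. Kcnh6 was called lower in control cells (−0.99 ± 0.20) and had 0.46 ± 0.21 in deletion cells. Cacna1g was the only calcium channel alpha1 gene lower in iNs (−2.24 ± 0.17 and −2.79 ± 0.21), while the other T-type genes Cacna1h and Cacna1i were higher in both genotypes.

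The channel profile of deletion iNs differed from that of control iNs in both directions, with more genes higher than lower. Of 98 members tested in deletion iNs against control iNs, 35 were higher and 14 lower at an adjusted p under 0.05 and 49 were not called. Over all 16028 genes tested 12.4% were higher and 13.3% lower, 25.6% in all. These shares also apply beside the class counts below. The median log2 fold change of the members was 0.14, against 0.00 over all genes. For 57 members the 3 deletion iN libraries did not overlap the 3 control iN libraries in CPM, where 40.8% of all genes did not overlap. A change of at least 2-fold was called for 10 members and for 3.21% of all genes. The 7 members not tested were Kcnab3, Kcnj9, Kcnj10, Kcnj14, Kcnk5, Kcnk6 and Cacng6, each with low counts in both iN groups. In the authors' deposited table of the same comparison, 101 members were listed, 30 as higher and 13 as lower at an adjusted p under 0.05, where 25.9% of its 14325 genes were called. In all, 42 members were called both there and here, each with the same sign. Called here but not there were Kcnd2, Kcnh4, Kcnip1, Kcnj2, Kcnj11, Cacna1i and Cacnb2. The authors' deposited table also called Kcnk1 lower (−0.38, adjusted p = 0.0322), which was not called here (−0.37 ± 0.15, adjusted p = 0.0729). Neurog2, the gene of the inducing factor, had 582.87 to 647.71 CPM in deletion iNs and 213.58 to 240.51 CPM in control iNs, and its part in the channel results was not tested.

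**Figure D2:**
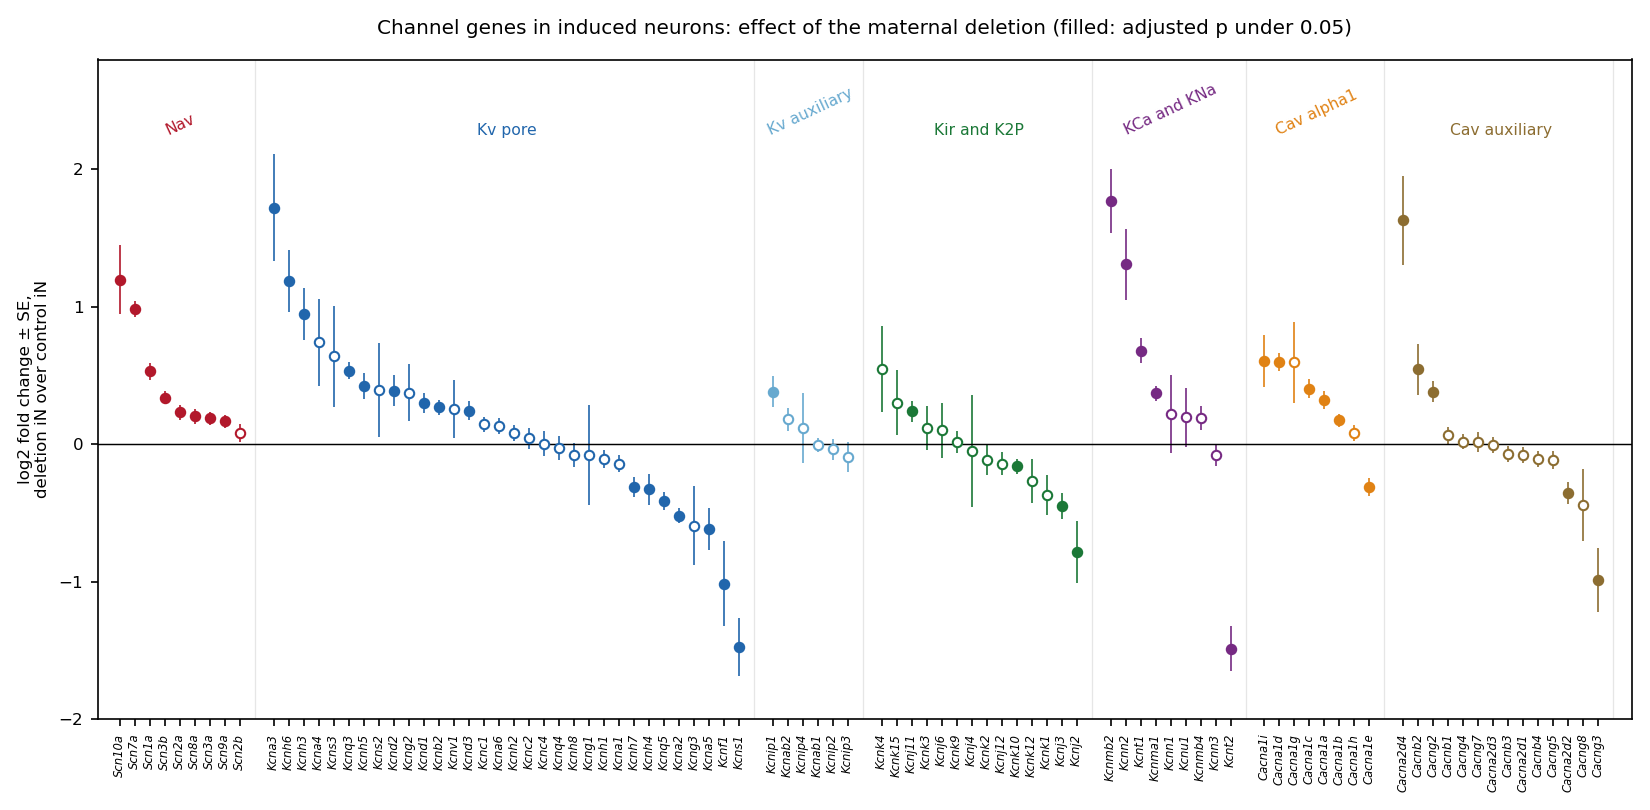
Log2 fold change ± SE of deletion iNs over control iNs for 92 tested channel genes in 7 classes; filled points passed an adjusted p of 0.05. All sodium channel points lie above 0, whereas the Kv pore class runs from 1.72 for Kcna3 to −1.47 for Kcns1.

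Sodium channels were higher as a class. Of 11 genes, 10 were called higher and none lower, and the 11th, Scn2b, did not pass (0.08 ± 0.07, adjusted p = 0.393). Their counts summed to 2375, 2364 and 2405 CPM in deletion iN libraries against 1958, 1926 and 2002 CPM in control iN libraries, and the groups did not overlap. Scn9a and Scn3b made up much of that sum. Scn10a, a channel of pain-sensing neurons, had 3.33, 3.06 and 4.16 CPM in deletion iN libraries against 1.004, 2.12 and 1.34 CPM in control iN libraries (log2 fold change 1.20 ± 0.25, adjusted p = 0.00267). Scn7a, a sodium-sensing relative that voltage does not open, reached 224, 214 and 219.5 CPM in deletion iNs against 114, 103 and 117 CPM in control iNs (0.98 ± 0.06, adjusted p = 2.12e-08). In both genes every deletion iN library was above every control iN library. The summed level of 12 striated and smooth muscle markers was 1.88 to 2.63 CPM in deletion iNs and 2.14 to 2.38 CPM in control iNs, with 3 and 4 of the 12 at 0.

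Other sodium channel genes rose by less. Scn1a changed by 0.53 ± 0.06, the beta subunit gene Scn3b by 0.34 ± 0.05, and Scn2a, the main channel of the young axon, by 0.23 ± 0.05. Scn8a, the channel of the mature axon initial segment, changed by 0.20 ± 0.05, Scn3a, which is prominent in immature neurons, by 0.19 ± 0.05, and Scn9a by 0.17 ± 0.05. The calls of Scn8a, Scn3a and Scn9a were lost when some single libraries were left out. Without deletion iN library A, Scn3a had 0.18 (adjusted p = 0.0531) and Scn9a 0.18 (0.056), without deletion iN library B Scn9a had 0.16 (0.0698), without deletion iN library C Scn3a had 0.19 (0.0519), Scn8a 0.17 (0.0845) and Scn9a 0.16 (0.115), and without control iN library B Scn9a had 0.13 (0.094). RSEM split some reads between close relatives, which showed as fractional expected counts in Scn1a, Scn2a, Scn3a, Scn9a and Scn10a, so part of their counts is uncertain.

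Scn3a, Scn2a, Scn1a, Scn9a and Scn7a lie in 1 array on chromosome 2 (GRCm38.p6, from base 65457118 to base 66784910), each within 1000000 bases of the next. A wider gap separates Scn2a, which ends at base 65767447, from Scn1a, which starts at base 66270781. All 5 were called higher in deletion iNs, Scn7a by the most. The promoters of the 3 genes at one end of this array are shown because these neighbours are read from the same strand and changed by different amounts. Each run holds 250 bases before and 50 bases after an annotated start on the minus strand, from RefSeq on GRCm38.p6, and capitals mark the E-box letters CAGATG or CAGCTG on either strand, the letters that proneural factors such as Neurog2 bind.
Scn1a, chr2:66440788-66441087: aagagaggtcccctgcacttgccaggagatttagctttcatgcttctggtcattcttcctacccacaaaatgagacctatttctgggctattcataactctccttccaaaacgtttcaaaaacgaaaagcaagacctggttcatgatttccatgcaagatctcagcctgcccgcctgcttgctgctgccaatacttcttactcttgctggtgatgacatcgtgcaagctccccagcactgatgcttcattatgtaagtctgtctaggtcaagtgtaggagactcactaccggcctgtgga
Scn9a, chr2:66634913-66635212: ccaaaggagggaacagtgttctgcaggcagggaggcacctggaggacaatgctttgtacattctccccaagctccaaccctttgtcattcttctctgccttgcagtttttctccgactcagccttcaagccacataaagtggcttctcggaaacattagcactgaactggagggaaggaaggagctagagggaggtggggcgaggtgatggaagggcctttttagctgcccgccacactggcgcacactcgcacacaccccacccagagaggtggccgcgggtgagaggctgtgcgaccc
Scn7a, chr2:66784861-66785160: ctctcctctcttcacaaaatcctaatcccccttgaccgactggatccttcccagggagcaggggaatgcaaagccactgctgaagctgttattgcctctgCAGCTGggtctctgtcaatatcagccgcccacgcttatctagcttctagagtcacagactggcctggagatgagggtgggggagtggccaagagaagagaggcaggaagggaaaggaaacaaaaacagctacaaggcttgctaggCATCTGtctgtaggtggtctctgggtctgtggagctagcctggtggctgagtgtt

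The Scn7a window holds CAGCTG, which begins 150 bases before the start. It also holds CAGATG, read as CATCTG, which begins 5 bases before the start and runs across it. The Scn1a and Scn9a windows hold neither, and windows of Scn2a and Scn3a are not shown. Whether these letters bear on the changes in deletion iNs was not tested. Promoters of 74 of the 105 members matched, with 105 windows of 300 bases. CAGATG on either strand was in 15.2% of these windows and in 17.2% of all 32851 windows, and CAGCTG in 26.7% of them and in 16.3% of all. The windows of the members had a median GC content of 62.0% against 52.7% over all windows, and a median of 12 CpG against 7.

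**Figure D3:**
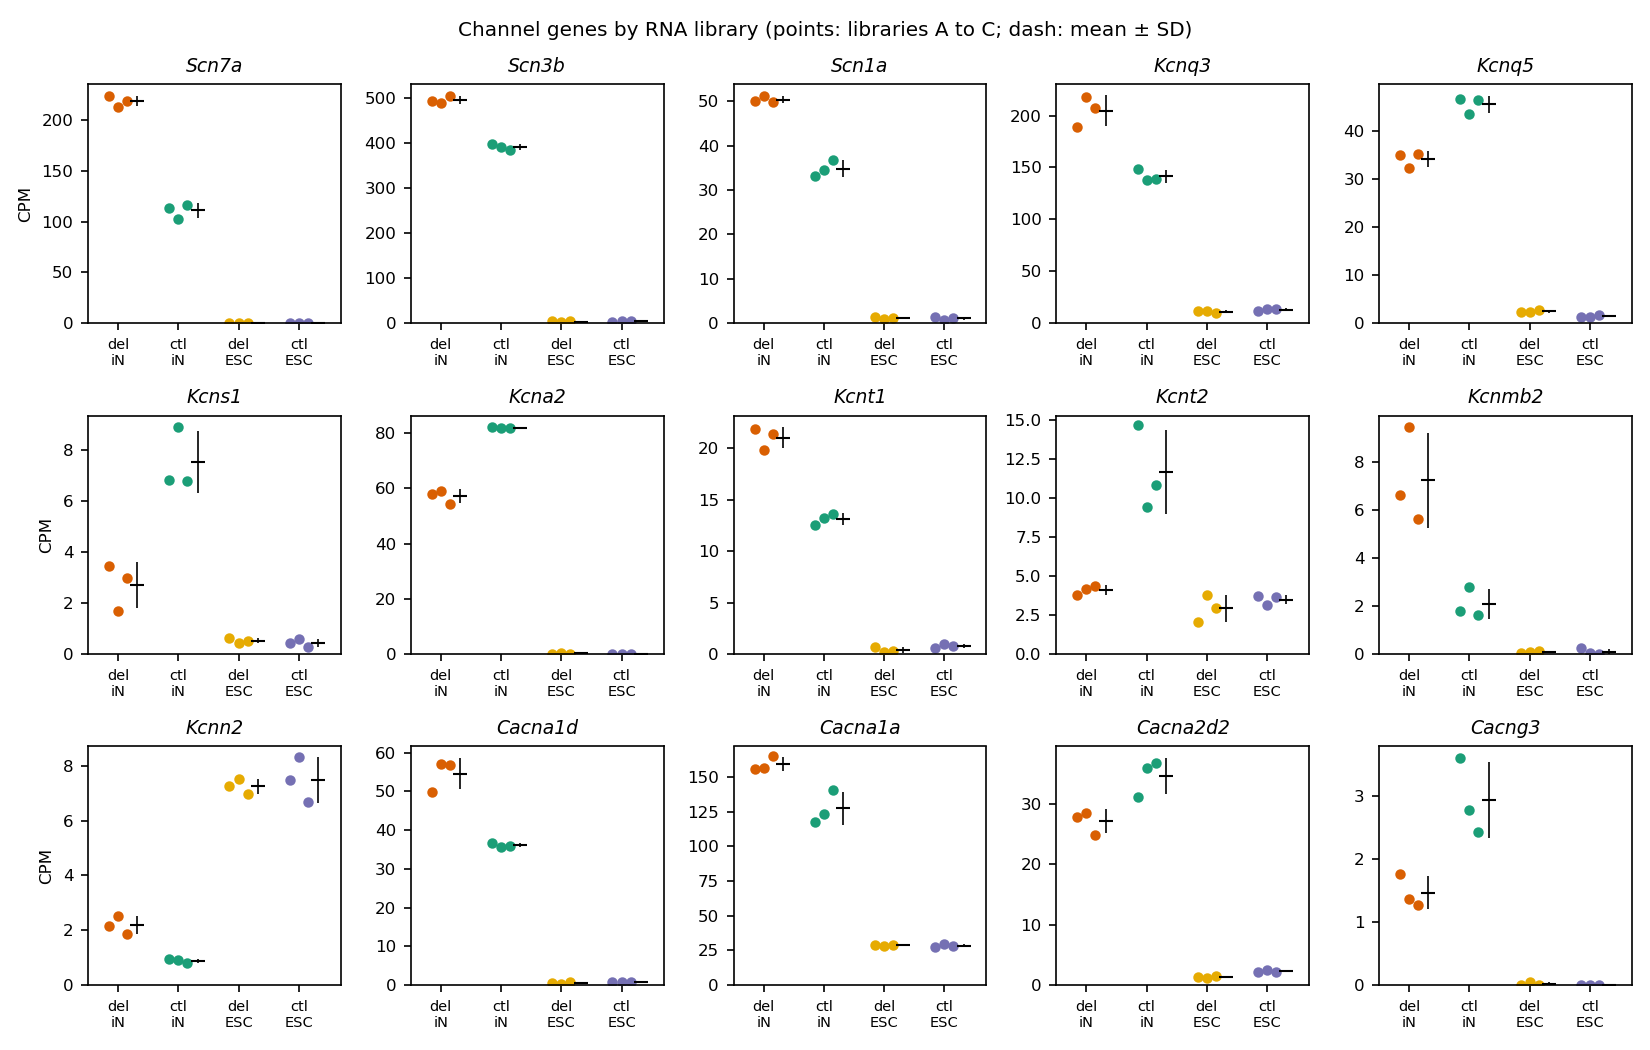
CPM of 15 channel genes in each RNA library, with deletion iN, control iN, deletion ESC and control ESC libraries from left to right; dashes are means and bars SDs of 3 libraries. The deletion iN points of Scn7a lie between 214 and 224 CPM and its control iN points between 103 and 117 CPM, and for Kcns1, Kcnt2 and Cacng3 the deletion iN points lie below all control iN points.

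Pore-forming Kv subunits moved both ways. Of 35 genes, 11 were higher and 7 lower in deletion iNs. Kcnq3, a subunit of the M current that holds neurons near rest, had 189, 218 and 207 CPM in deletion iN libraries against 148, 138 and 138 CPM in control iN libraries (0.54 ± 0.06, adjusted p = 1.54e-05). Kcnq5, of the same family, was lower, with 34.9, 32.3 and 35.1 CPM against 46.6, 43.4 and 46.4 CPM (−0.41 ± 0.06, adjusted p = 0.000227). Kcnq3 and Kcnq5 thus changed in opposite directions. The delayed rectifier gene Kcnb2 was higher (0.27 ± 0.06). All 3 genes of the Kv4 family, which carries the transient A current of dendrites, were called higher, with Kcnd1 at 0.30 ± 0.07, Kcnd2 at 0.39 ± 0.11 and Kcnd3 at 0.24 ± 0.07.

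The largest changes among Kv subunits were in genes with few counts. Kcna3, best known from lymphocytes, had 1.26, 1.48 and 1.37 CPM in deletion iNs against 0.134, 0.378 and 0.697 CPM in control iNs (1.72 ± 0.39, adjusted p = 0.0044). Of the EAG family, Kcnh6 had 3.13, 3.43 and 2.43 CPM against 1.34, 1.23 and 1.39 CPM (1.19 ± 0.23, adjusted p = 0.00126) and Kcnh3 3.69, 4.48 and 4.16 CPM against 1.87, 2.12 and 2.38 CPM (0.94 ± 0.19, adjusted p = 0.00178). All of these libraries stood above those of control iNs. The silent subunit gene Kcns1 was lower, at 3.43, 1.69 and 2.99 CPM in deletion iNs against 6.83, 8.92 and 6.79 CPM in control iNs (−1.47 ± 0.21, adjusted p = 0.000109). Kcnf1, another silent subunit, had 0.757, 0.5801 and 0.609 CPM against 1.67, 1.23 and 1.103 CPM (−1.01 ± 0.31, adjusted p = 0.0245). Kcna5 of the Kv1 family had 4.29, 5.38 and 4.26 CPM in deletion iNs against 6.49, 6.75 and 8.13 CPM in control iNs (−0.62 ± 0.15, adjusted p = 0.00725).

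Within the Kv1 family, which sits at axons and juxtaparanodes, Kcna2 fell to 57.9, 59.2 and 54.3 CPM in deletion iN libraries, against 82.3, 82.01 and 81.8 CPM in control iN libraries (−0.52 ± 0.06, adjusted p = 8.84e-06). Its usual partner Kcna1 did not pass the threshold (−0.14 ± 0.07, adjusted p = 0.132), nor did Kcna6, the Kv1 gene with the highest level here (0.13 ± 0.06, adjusted p = 0.117). Kcnh5 was higher (0.42), and Kcnh4 (−0.33) and Kcnh7 (−0.31) were lower. Of the accessory Kv genes, Kcnip1, which binds Kv4 channels, was higher (0.38 ± 0.12, adjusted p = 0.024) and the other 5 tested were not called, among them Kcnab1 (−0.01 ± 0.05) and Kcnab2 (0.18 ± 0.08).

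Several of these Kv calls were lost when 1 library was left out, with adjusted p from 0.0511 to 0.165. Without deletion iN library A this held for Kcnd2 (0.37) and Kcnh4 (−0.36). Without deletion iN library B it held for Kcnd3 (0.19), Kcnf1 (−0.94), Kcnh4 (−0.34) and Kcnip1 (0.30). Without deletion iN library C it held for Kcnd1 (0.25), Kcnd2 (0.39), Kcnf1 (−0.97), Kcnh4 (−0.28) and Kcnip1 (0.37). Without control iN library A it held for Kcnd2 (0.34), Kcnf1 (−0.84) and Kcnh4 (−0.35), without library B for Kcnd2 (0.34) and Kcnip1 (0.39), and without library C for Kcnd3 (0.18), Kcnh4 (−0.27) and Kcnip1 (0.36). DESeq2's Wald test with all libraries also did not call Kcnd2 (adjusted p = 0.0558), Kcnf1 (0.116), Kcnh4 (0.132) or Kcnip1 (0.0657). The Kcnh4 call was lost in 9 of 12 alternatives.

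Of 14 inward rectifier and leak channel genes tested, 1 was higher and 3 lower, a share near the 25.6% called over all genes. Kcnj3, a channel opened by G proteins, had 21.1, 25.3 and 21.96 CPM in deletion iNs against 35.2, 29.7 and 28.5 CPM in control iNs (−0.45 ± 0.09, adjusted p = 0.00253). Kcnj2, a classical inward rectifier, had 1.57, 1.69 and 1.17 CPM against 2.54, 2.69 and 2.38 CPM (−0.78 ± 0.23, adjusted p = 0.0188), and the leak channel Kcnk10 had 90.6, 88.6 and 93.3 CPM against 101, 104 and 101 CPM (−0.16 ± 0.05, adjusted p = 0.0397). Kcnj11, the pore of the channel that ATP closes, was higher at 23.02, 24.00 and 25.2 CPM against 19.9, 20.95 and 20.3 CPM (0.24 ± 0.08, adjusted p = 0.0335). Kcnk9, the leak channel with the highest TPM in the neurons, though below Kcnk10 in CPM, was not called (0.02 ± 0.08, adjusted p = 0.891). The Kcnj11 call was lost without control iN library A (0.22) or C (0.24) and without deletion iN library B (0.24) or C (0.20), and the Kcnj2 call without control iN library B (−0.74) or deletion iN library C (−0.64). The Kcnk10 call was lost without control iN library B (−0.15) or C (−0.17) and without deletion iN library A (−0.16), B (−0.14) or C (−0.18).

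Potassium channels opened by calcium or sodium held some of the largest changes of the set. Of 9 genes, 4 were higher and 1 lower. The accessory BK gene Kcnmb2, which makes BK channels inactivate, had 6.61, 9.44 and 5.63 CPM in deletion iN libraries against 1.81, 2.78 and 1.63 CPM in control iN libraries (1.77 ± 0.23, adjusted p = 5.07e-05). The BK pore gene Kcnma1 had 108, 114 and 115 CPM against 87.7, 84.8 and 88.4 CPM (0.37 ± 0.06, adjusted p = 0.000155), and Kcnmb4, the neuronal BK beta subunit, did not pass (0.19 ± 0.08, adjusted p = 0.111). The small-conductance channel Kcnn2 had 2.17, 2.53 and 1.88 CPM in deletion iNs against 0.937, 0.897 and 0.813 CPM in control iNs (1.31 ± 0.26, adjusted p = 0.0015), while Kcnn3, the member of that family with the highest level in the neurons, had −0.08 ± 0.08 (adjusted p = 0.517).

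The sodium-activated pair moved in opposite directions. Kcnt1 (Slack) had 21.9, 19.9 and 21.5 CPM in deletion iN libraries against 12.5, 13.3 and 13.6 CPM in control iN libraries (0.68 ± 0.09, adjusted p = 4.89e-05). Kcnt2 (Slick) had 3.79, 4.17 and 4.36 CPM against 14.7, 9.44 and 10.9 CPM (−1.49 ± 0.16, adjusted p = 1.06e-05), the largest fall among the 98 tested members. Neither gene's deletion and control iN libraries overlapped. In ESCs, Kcnt2 had 2.08, 3.79 and 2.93 CPM in deletion ESC libraries and 3.71, 3.14 and 3.63 CPM in control ESC libraries.

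Calcium channel alpha1 genes were higher in 5 of 8 cases and lower in 1. The L-type genes, which couple firing to transcription, were both higher: Cacna1d had 49.9, 57.1 and 56.7 CPM in deletion iNs against 36.6, 35.7 and 35.9 CPM in control iNs (0.60 ± 0.07, adjusted p = 1.07e-05), and Cacna1c 91.6, 89.97 and 102 CPM against 65.3, 74.9 and 74.03 CPM (0.40 ± 0.07, adjusted p = 0.000455). The presynaptic P/Q-type gene Cacna1a had 156, 157 and 165 CPM in deletion iNs against 117, 124 and 141 CPM in control iNs (0.32 ± 0.07, adjusted p = 0.00186), and the presynaptic N-type gene Cacna1b 386, 371 and 379.9 CPM against 326, 339.7 and 342 CPM (0.17 ± 0.05, adjusted p = 0.0159). Cacna1e, which carries the R-type current, was lower at 64.5, 74.5 and 71.3 CPM against 90.4, 86.2 and 84.8 CPM (−0.31 ± 0.06, adjusted p = 0.00195). The T-type gene Cacna1i, of low level, was higher (0.61 ± 0.19, adjusted p = 0.027), and the other T-type genes Cacna1g (0.60 ± 0.29) and Cacna1h (0.08 ± 0.06) were not called. The Cacna1b call was lost without deletion iN library A (0.16) or C (0.17), and that of Cacna1i without any 1 of 5 libraries, which were control iN A (0.53) and C (0.55) and deletion iN A (0.54), B (0.64) and C (0.65).

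Of 14 accessory calcium channel genes tested, 3 were higher, 2 lower and 9 not called, where 25.6% of all genes were called. Cacna2d4, an alpha2delta gene of the retina with few counts here, had 1.46, 1.37 and 1.57 CPM in deletion iNs against 0.469, 0.3303 and 0.639 CPM in control iNs (1.63 ± 0.32, adjusted p = 0.00162). Cacng2 had 48.7, 48.4 and 44.5 CPM against 33.6, 33.98 and 41.2 CPM (0.38 ± 0.08, adjusted p = 0.002), while the related glutamate receptor partner Cacng3 was lower at 1.77, 1.37 and 1.27 CPM against 3.61, 2.78 and 2.44 CPM (−0.99 ± 0.24, adjusted p = 0.00595). Cacna2d2 was lower as well, at 27.9, 28.6 and 24.9 CPM in deletion iNs against 31.2, 35.9 and 36.9 CPM in control iNs (−0.36 ± 0.08, adjusted p = 0.00445). The alpha2delta genes with the highest levels were not called, with Cacna2d1 at −0.08 ± 0.06 (adjusted p = 0.384) and Cacna2d3 at −0.01 ± 0.06 (adjusted p = 0.958). The beta subunit gene Cacnb2 was called higher (0.55 ± 0.18, adjusted p = 0.0407), a call that was lost without any 1 of the 6 libraries (0.48 to 0.59).

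Genes that anchor, traffic or act beside these channels were counted from a list of 44 partners, of which 43 were found. In deletion iNs against control iNs 17 of 39 tested were higher and 5 lower, with a median log2 fold change of 0.12. Over all 16028 genes tested 12.4% were higher and 13.3% lower, with a median of 0.00, and these shares also apply beside the marker counts below. Some genes of axonal scaffolds and adhesion were among those higher, with Cntnap1 at 1.08 ± 0.09, Sptbn4 at 0.55 ± 0.10, Nfasc at 0.32 ± 0.06, Nrcam at 0.28 ± 0.05 and Ank2 at 0.23 ± 0.05, while Cntnap2, which clusters Kv1 channels, was lower (−0.30 ± 0.05). Nalcn, the sodium leak channel, and its partner Unc80 were higher (0.38 ± 0.06 and 0.22 ± 0.05), as was the calcium channel inhibitor Rem2 (1.97 ± 0.34). Fgf14, a sodium channel modulator (−0.97 ± 0.13), Dpp10, a Kv4 partner (−0.26 ± 0.07), and Lgi1, a secreted protein that acts on Kv1 channels (−0.69 ± 0.14), were lower. The genes given here were picked after their values were seen, and other listed genes, among them Ank3, Sptbn1 and Cntn1, are not given singly. Of the 12 pan-neuronal markers, 5 were higher and none lower, with a median of 0.05. Of tested markers of other cells, 2 of 4 for glia were higher, 2 of 3 for neural progenitors were higher and 1 lower, 1 of 5 for pluripotency was higher and 3 lower, and 1 of 3 for endoderm and mesoderm was lower. None of 3 for fibroblasts and none of 2 for muscle was called. The 12 glial markers summed to 47.52 to 53.82 CPM in deletion iNs and 42.38 to 45.51 CPM in control iNs, with 2 at 0 in each group. The 6 neural progenitor markers summed to 452.21 to 477.62 CPM in deletion iNs, with 1 at 0, and 589.83 to 632.59 CPM in control iNs. The 8 fibroblast markers summed to 32.77 to 36.72 CPM in deletion iNs and 35.63 to 36.48 CPM in control iNs, and the 8 endoderm and mesoderm markers to 2.84 to 3.18 and 2.5 to 3.19 CPM in the same groups. The part of these cells in the channel results was not tested.

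In stem cells no channel gene passed the threshold in the main test. Of 73 members tested in deletion ESCs against control ESCs with edgeR's quasi-likelihood test none was called, 7 had an unadjusted p under 0.05, and over all 16185 genes 1.91% were called. DESeq2's Wald test called none. ESC libraries of the same letter correlated weakly across the genotypes in their deviations from the group mean (0.35, 0.11 and 0.14), and the labels give no pairing. With the letter as a block, Kcnq5 (2.27, 2.28 and 2.77 CPM in deletion ESC libraries against 1.28, 1.27 and 1.599 in control ESC libraries) and Cacng7 (20.2, 21.1 and 20.6 CPM against 16.3, 17.3 and 14.8 CPM) were called higher, at 0.80 ± 0.19 (adjusted p = 0.0411) and 0.34 ± 0.07 (adjusted p = 0.0235). Without the block they had 0.80 ± 0.19 (adjusted p = 0.0819) and 0.34 ± 0.07 (adjusted p = 0.0607), and in both genes the groups did not overlap in CPM, as in 23.9% of all genes. Cacna2d2 had 1.33, 1.19 and 1.52 CPM in deletion ESCs against 2.19, 2.41 and 2.24 CPM in control ESCs (−0.77 ± 0.18, adjusted p = 0.0791). The same edgeR test in 1 fit of all 12 libraries called Kcnq5 (0.81, adjusted p = 0.00744), Cacng7 (0.35, 0.0329) and Cacna2d2 (−0.75, 0.0282). Without the filter on low counts it called Cacng7 (0.34, adjusted p = 0.0253). The authors' deposited table called Kcnq5 (0.81) and Cacng7 (0.36) higher and Cacna2d2 (−0.75) and Kcnd3 (−1.63) lower among 80 listed members, where 3.38% of its genes were called. The 32 members not tested were low in ESCs and did not pass the count filter, so a change in them was not assessed by this comparison. Kcnd3, called lower in the authors' deposited table, was among them.

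Whether the deletion acted differently in iNs and in ESCs was tested in 1 fit over all 12 libraries. A difference was called for 19 of 105 members, 15 with a higher and 4 with a lower value in iNs, where 13.5% of 18299 genes were called, 5.01% higher and 8.50% lower. Among sodium channels it was called for Scn3b (a log2 difference of 0.41 ± 0.10, adjusted p = 0.0398), a call that was lost without control ESC library B (0.38) or C (0.36), without any 1 deletion ESC library (0.39 to 0.42) and without deletion iN library C (0.40). Among potassium channels the called differences above 1 in size were in Kcnd3, Kcna3, Kcns1, Kcnt1, Kcnh6, Kcnn2, Kcnt2, Kcnq5 and Kcnh3, and among calcium channels only Cacna1d was above 1. Kcnq5 had opposite signs in the cell types, with −0.41 ± 0.06 in iNs and 0.80 ± 0.19 in ESCs, a difference of −1.23 ± 0.16 (adjusted p = 0.000142). Kcnn2, which was lower in neurons than in stem cells, had a difference of 1.35 ± 0.24 (adjusted p = 0.0013). It had 2.17, 2.53 and 1.88 CPM in deletion iN and 0.937, 0.897 and 0.813 CPM in control iN libraries, beside 7.26, 7.52 and 6.96 CPM in deletion ESC and 7.47, 8.33 and 6.66 CPM in control ESC libraries. Kcnd3 had the largest called difference (1.94 ± 0.46, adjusted p = 0.0109), and its ESC levels were 0.0494, 0.259 and 0.157 CPM in deletion ESC and 0.714, 0.423 and 0.373 CPM in control ESC libraries. Without control ESC library A it was 1.57 (adjusted p = 0.0686).

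**Figure D4:**
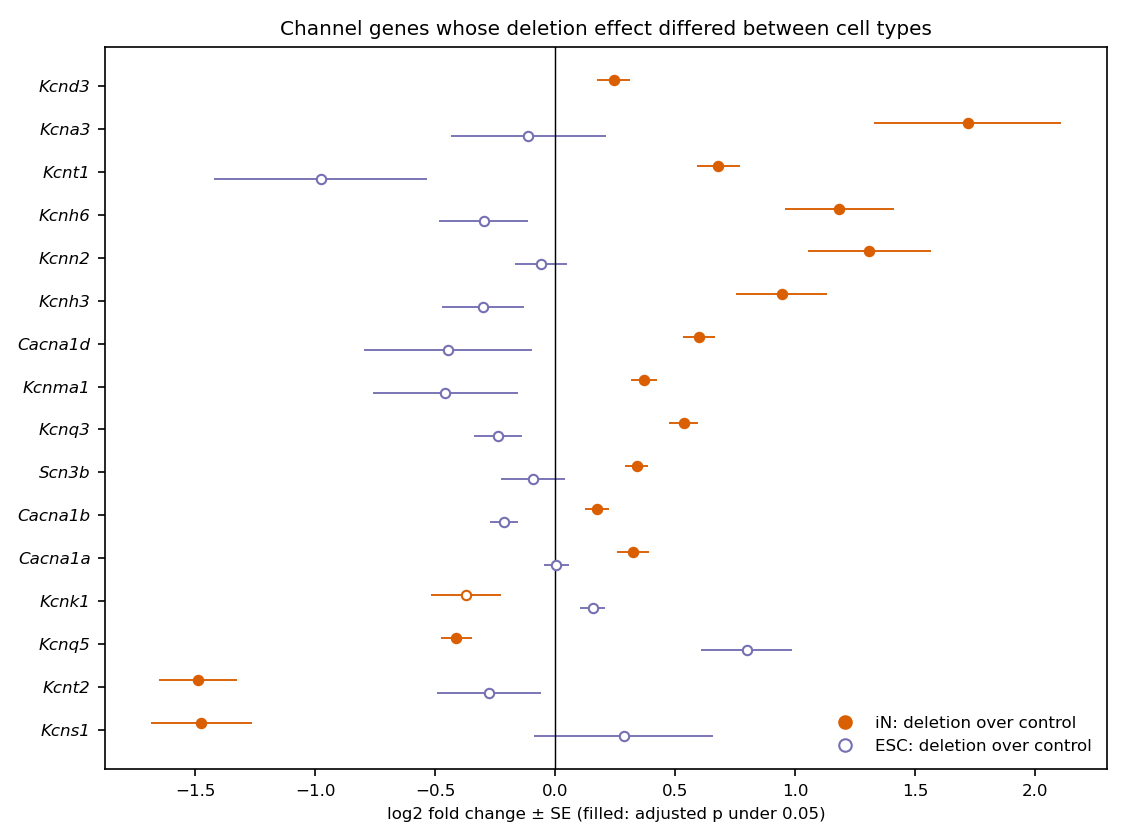
Log2 fold change ± SE of deletion over control cells in iNs and in ESCs for 16 channel genes whose deletion effect differed between the cell types; filled points passed an adjusted p of 0.05 in the cell type alone. All filled points are iN points, Kcnd3 has no ESC point because it was not tested there, and Kcnq5 lies at −0.41 in iNs and 0.80 in ESCs.

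Argonaute-bound regions were examined in the deposited peak lists from control iNs that expressed HA-tagged or untagged Ago2. Ago2 carries microRNAs, and the lists give for each region the authors' log2 fold of the HA pulldown over the untagged pulldown and over its input, with no replicates kept apart. Of 105 members, 28 (26.7%) held at least 1 of the 22432 regions, against 25.8% of 21900 protein-coding genes. Among genes with a mean of at least 1 TPM in control iNs, a restriction chosen after the data were seen, 20 of 75 members (26.7%) and 43.4% of all such genes held a region. Only Kcnk10 held a region with a log2 fold of at least 3 over the untagged pulldown (0.952% of members, against 1.67% of protein-coding genes). That region lay on the minus strand of chromosome 12 at mm10 chr12:98434687-98434735, with a log2 fold of 3.66, a −log10 p of 10.7 and a log2 fold of 6.07 over the input. Kcnk10 was one of the 3 lower genes of its class in deletion iNs, at −0.16 ± 0.05. Kcnip1 held 10 regions, all within chr11:33754715-33755078 and many of them directly abutting, so they do not count as separate sites. Their log2 folds were 2.66 to 5.57 over the input but −0.50 to 0.16 over the untagged pulldown. None of the 636 gene names in the authors' deposited table of regions matched to cluster microRNAs was a channel gene. Beside 21900 protein-coding genes that list is short. At the share over all genes few of the 105 members would be on it, so their absence says little.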

How the data were processed

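RNA was measured in 12 libraries, 3 per group, and Ago2 binding by CLIP in iNs. Per the submitters' processing notes, the tools named, without their roles, were RSEM 1.2.30, STAR 2.4.1d, cutadapt 1.4.2, SAMtools and DESeq2, and the build mm10. The authors deposited RSEM expected counts and TPM per gene, per the file headers. Their deposited comparison tables hold log2 fold changes, adjusted p-values and a mean normalised count signal, and the deposited region lists hold log2 folds and −log10 p values.

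These counts, after rounding, entered edgeR 4.0.16 (limma 3.58.1, R 4.3.3) with TMM scaling, a count minimum of 10 in its expression filter, a quasi-likelihood F test and Benjamini-Hochberg adjustment over all genes tested, in fits of the 6 libraries compared. SEs are the log2 fold change divided by the root of F, and they are too small where a group has few counts. The difference of the deletion effect used all 12 libraries. CPM used the TMM library sizes of all 12. Alternatives were DESeq2 1.42.0 size factors and Wald test, no filter, posterior mean counts, a replicate block, 1 fit of all libraries, leaving out each library and, for the regions, a stricter fold and strand. The code was checked on simulated data. ESC libraries of the same letter correlated weakly across the genotypes (0.35, 0.11 and 0.14), with no pairing given in the labels. Gene IDs were matched to symbols for 52435 of 52636 entries.

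Per class, genes were named by the 2 highest neuron levels and up to 3 largest called rises and falls per comparison, and other called genes of the iN comparison were added after their values were seen. The members, classes and lists were chosen with earlier results of these data known. Isoform and small RNA tables were not used here. A few genes are counted in the totals and not reported here.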

Additional observations from a re-analysis of the deposited data

Results flagged for a closer look

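In 19 channel genes the effect of the deletion differed between iNs and ESCs by edgeR's interaction term at an adjusted p under 0.05. Of these, 16 are given here. The log2 difference, iN effect minus ESC effect, was positive in Scn3b (0.41), Kcna3 (1.82), Kcnd3 (1.94), Kcnh3 (1.23), Kcnh6 (1.47), Kcnq3 (0.75), Kcnma1 (0.82), Kcnn2 (1.35), Kcnt1 (1.63), Cacna1d (1.03), Cacna1a (0.30) and Cacna1b (0.37). It was negative in Kcns1 (−1.78), Kcnq5 (−1.23), Kcnk1 (−0.55) and Kcnt2 (−1.23). Of the 19 calls, 11 held under every alternative run. The others given here were lost without 1 or more single libraries, Kcna3 (1.85, adjusted p = 0.0546) and Kcnma1 (0.82, adjusted p = 0.0539) also with the replicate block, and Scn3b (0.40, adjusted p = 0.0568) also with DESeq2's Wald test. Kcnma1 had 0.46 (adjusted p = 0.413) without control ESC library A, and Kcnd3 had 1.57 (adjusted p = 0.0686) without the same library. Kcnt1, whose call held, had 2.35 without deletion ESC library A. Scn3b was lost at 0.36 to 0.42, Kcna3 at 1.47 to 1.87, Kcns1 at −1.79 to −1.54, Cacna1d at 0.84 to 1.06 and Cacna1a at 0.25 to 0.31 (log2 differences without single libraries). Kcnk1, the channel gene with the highest level in ESCs, had −0.37 ± 0.15 in iNs (adjusted p = 0.0729) and 0.16 ± 0.05 in ESCs (adjusted p = 0.182), so neither cell type passed alone here. In the authors' deposited table Kcnk1 was called lower in deletion iNs (−0.38, adjusted p = 0.0322).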

How the results depend on the processing

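With 1 library left out at a time, the number of channel genes called ran from 34 to 45 for deletion iNs against control iNs (49 with all libraries), 0 to 0 for ESCs, 93 to 96 for control iNs against control ESCs, 95 to 97 for deletion iNs against deletion ESCs and 13 to 19 for the difference of the deletion effect, and the partner genes called ran from 17 to 23. In ESCs, where the main test called 0, no filter on low counts gave 1, a replicate block 2 and all 12 libraries in 1 fit 3. Of the 49 calls in deletion iNs, 33 held under every alternative, and none of the named genes changed sign. DESeq2's Wald test lost the calls of Kcnd2, Kcnf1, Kcnh4, Kcnip1, Kcnj2, Kcnj11, Cacna1i and Cacnb2. With the replicate block, which changed the ESC count only by more than 1.5 times, 43 channel genes were called in deletion iNs against control iNs, 17 for the difference, 93 and 97 for control and deletion iNs against ESCs, and 20 partner genes. Outside the ESC comparison the letters showed no clear pairing. Same-letter correlations were −0.05, 0.02 and 0.04 in the iN comparison, −0.15, −0.11 and 0.02 in control and −0.07, −0.04 and 0.02 in deletion iNs against ESCs. Library C alone correlated best with its own letter in each. Channel genes with an Ago2 region fell to 1 with a log2 fold of at least 3, and to 17 with the region midpoint inside the gene on the same strand, which could be asked for 74 members only, 18 of which held a region without the midpoint and strand rule. Members with few counts in ESCs limit what could be seen there, as 32 were not tested.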
